A study of Mus musculus with 10 samples.

Results

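Genes of TRAIL and Fas death receptor signaling were examined in CT26 tumors that were resected before a poly(I:C)-releasing hydrogel was applied. The 8 genes were picked by name from the 36009 genes of the count table: the ligand Tnfsf10, its death receptor Tnfrsf10b, the decoy receptors Tnfrsf22 and Tnfrsf23 and their neighbor Tnfrsf26, the death receptor Fas, and the proximal proteins Fadd and Cflar. All 8 were present and all 8 were among the 16041 genes with enough counts to test. The set was proposed with results of this same comparison in view, so the difference of each of these genes between the groups is a description and carries no p-value.

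CT26 is a mouse colorectal carcinoma line, grown here under the skin of female wild-type BALB/c mice. The surgically removed bulk of each tumor was sequenced, and poly(I:C) hydrogel, which releases a double-stranded RNA mimic, was then placed on the residual tumor. Mice whose residual tumor regressed completely were responders (6 tumors) and those with no delay in growth were non-responders (4 tumors). Both groups were untreated when the tissue was taken, no group without hydrogel was part of the comparison, and the labels give no age. The comparison asks which features of the tumor before treatment differ with later response.

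TRAIL, the product of Tnfsf10, is a TNF family ligand made by activated immune cells and is known as an interferon-responsive gene. On target cells it clusters a receptor that carries an intracellular death domain, the adaptor FADD is recruited, and FADD brings in caspase-8, which starts apoptosis. Fas works through the same adaptor after binding Fas ligand. Decoy receptors bind TRAIL but lack a death domain, and cFLIP, the product of Cflar, resembles caspase-8 and holds it in check at the receptor.

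The estimated counts summed to between 29065126 and 38042544 per responder tumor and between 23374649 and 32986456 per non-responder tumor. In bulk tumor, fewer cells of a type and less RNA per cell cannot be told apart. Ptprc, which encodes the pan-leukocyte protein CD45, lay between 326 and 499 CPM (counts scaled to library size) in responders and between 181 and 307 in non-responders, without overlap. Of the markers of the labelled carcinoma, Krt20 was present at 12.7 to 75.3 CPM and Cdh1 at 2.63 to 7.03 CPM, whereas Epcam, Krt8, Krt18 and Vil1 were too low to test. The summed level of the 8 carcinoma markers was 17.5 to 42.1 CPM in responders and 40.3 to 84.8 CPM in non-responders, with 4 of 6 responders below all non-responders. Adipocyte markers (15.6 to 52.0 against 8.54 to 18.9 CPM over 4 genes) and skeletal muscle markers (316 to 1038 against 287 to 373 CPM over 4 genes) placed 5 of 6 responders above every non-responder.

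The 3 receptor genes without a death domain lie side by side on the minus strand of chromosome 7 (GRCm38, GENCODE annotation), Tnfrsf26 at chr7:143607659-143628722, Tnfrsf22 at chr7:143634806-143649661 and Tnfrsf23 at chr7:143665809-143685872. They span 78.2 kb that holds no other protein-coding gene. Their coding sequences differ in how alike they are, which bears on how reads can be assigned to each. Tnfrsf22 and Tnfrsf23 were identical at 90.5% of 528 aligned coding bases, Tnfrsf22 and Tnfrsf26 at 58.7% of 516, and Tnfrsf23 and Tnfrsf26 at 55.5% of 476. A stretch of 90 coding bases, chosen for the most bases shared between Tnfrsf22 and its neighbors, is shown 5′ to 3′ for the most alike pair, with capitals for bases that differ from Tnfrsf22. It crosses an exon junction in each gene, so the genomic span is longer than the sequence: chr7:143643343-143644808 for Tnfrsf22 and chr7:143680012-143681487 for Tnfrsf23, both on the minus strand of GRCm38.
Tnfrsf22: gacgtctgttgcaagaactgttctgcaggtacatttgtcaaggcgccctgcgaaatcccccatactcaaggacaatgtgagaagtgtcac
Tnfrsf23: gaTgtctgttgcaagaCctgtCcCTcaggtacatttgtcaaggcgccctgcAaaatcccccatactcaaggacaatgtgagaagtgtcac
Tnfrsf23 differed from Tnfrsf22 at 6 of these bases. Over whole transcripts, 25.5% of the 31-base words of Tnfrsf22 also occurred in Tnfrsf23 and 26.6% of those of Tnfrsf23 in Tnfrsf22, so the split of reads between this pair is uncertain. Counting any other gene, 38.5% of the words of Tnfrsf22 were shared, 28.5% of those of Tnfrsf23 and only 3.83% of those of Tnfrsf26. An antisense gene on the plus strand, E230032D23Rik, overlaps all 3 and shared 0.863% of the words of Tnfrsf22, 2.73% of those of Tnfrsf23 and 2.48% of those of Tnfrsf26 when both strands were read. The strand setting of the counting is not given in the sources used here, so reads from these shared stretches may not be separable.

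The promoters of Tnfsf10 and Fas are shown because both genes are known to answer interferon, and the level of interferon-stimulated genes varied widely among the tumors. RefSeq promoter sequences (GRCm38.p6) were matched for 5 of the 8 genes, and the 250 bases before the RefSeq start are printed 5′ to 3′ on the gene's strand, chr3:27316827-27317076 (plus) for Tnfsf10 and chr19:34290409-34290658 (plus) for Fas. Capitals mark a match to TTCNNNGAA, the core of the gamma-activated site, an interferon-gamma response element, which reads the same on both strands.
Tnfsf10: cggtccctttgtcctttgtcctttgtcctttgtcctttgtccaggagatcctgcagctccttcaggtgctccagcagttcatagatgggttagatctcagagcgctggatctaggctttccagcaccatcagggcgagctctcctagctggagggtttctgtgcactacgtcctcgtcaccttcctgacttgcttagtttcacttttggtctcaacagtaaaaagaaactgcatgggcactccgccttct
Fas: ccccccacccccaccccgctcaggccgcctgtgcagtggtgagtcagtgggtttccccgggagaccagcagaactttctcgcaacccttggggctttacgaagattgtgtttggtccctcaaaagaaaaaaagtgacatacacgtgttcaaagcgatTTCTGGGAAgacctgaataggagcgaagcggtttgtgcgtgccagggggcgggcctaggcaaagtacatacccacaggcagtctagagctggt
The Fas window held 1 such match, starting 93 bases before the start, and the windows of Tnfsf10, Tnfrsf23, Fadd and Cflar held none. None of the 5 windows held GAAANNGAAA, the core of the interferon-stimulated response element, on either strand. Over all 32851 promoters in the RefSeq table, 7.02% held the first motif and 2.98% the second in the same window. For Tnfsf10 the RefSeq start lies downstream of the GENCODE start, so the end of its window falls inside the annotated gene. A letter match is a description and not a binding site.

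**Figure D1:**
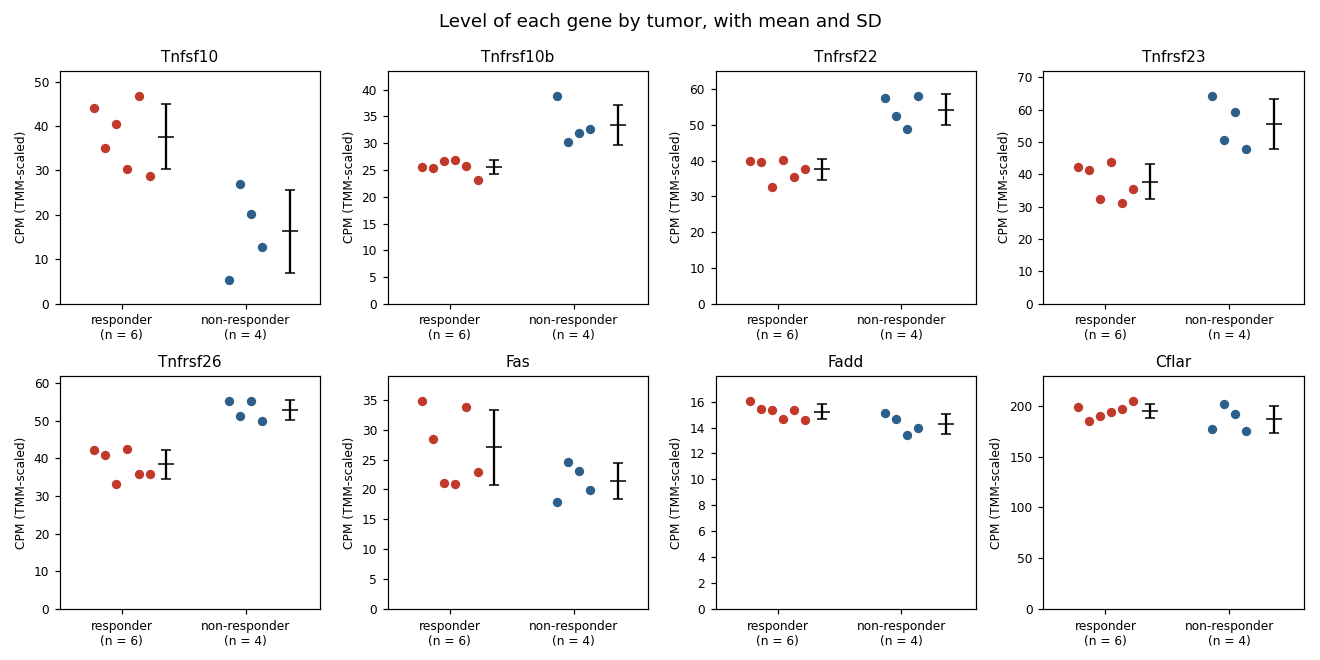
Level of each of the 8 genes (vertical axis, CPM after TMM scaling, from 0) in the 6 responder (red) and 4 non-responder (blue) tumors, with the mean and SD as a black bar beside each group. Every responder lies above every non-responder for Tnfsf10 and below every non-responder for Tnfrsf10b, Tnfrsf22, Tnfrsf23 and Tnfrsf26, and the groups overlap for Fas, Fadd and Cflar.

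In tumors of later responders the ligand was higher, and its receptors and the related neighbor Tnfrsf26 were lower. Tnfsf10 averaged 37.6 ± 7.32 CPM (SD, n = 6) in responders and 16.3 ± 9.37 CPM (SD, n = 4) in non-responders. Tnfrsf10b and the 3 receptors without a death domain each averaged between 0.679 and 0.764 times the non-responder level. Fas, Fadd and Cflar overlapped between the groups. By edgeR's quasi-likelihood test at an adjusted p of 0.05, 4 of the 8 genes were called, all lower in responders (Tnfrsf10b, Tnfrsf22, Tnfrsf23 and Tnfrsf26), and none was called higher. Across all 16041 genes 8.06% were called, 4.71% higher and 3.35% lower. The groups did not overlap for 5 of the 8 genes, against 10.4% of all genes. The 8 genes were proposed from this contrast, so nothing is read from these counts.

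Tnfsf10 (ENSMUSG00000039304, chr3:27317028-27342427, plus strand) encodes TRAIL. In responders its level ran from 28.8 to 46.8 CPM with a median of 37.8. The 4 non-responders had 5.25, 27.0, 20.2 and 12.9 CPM. The lowest responder was 1.85 CPM above the highest non-responder, so the groups were apart by little, and the non-responders varied more among themselves (coefficient of variation 57.4%) than the responders (19.5%). The log2 fold change of responders over non-responders was 1.20 (SE 0.34), the largest of the 8 in size and also the least precise. The first non-responder carried the lowest value, and without it the log2 fold change was 0.92 (SE 0.23). Leaving out the second non-responder, which had the highest value of its group, raised it to 1.56 (SE 0.33).

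Several marker lists were, like Tnfsf10, higher in responders. The 8 interferon-stimulated genes all had higher estimates in responders, none was called (smallest adjusted p = 0.0693 by edgeR), and their summed level was 1187 to 1606 CPM in responders against 329 to 1233 CPM in non-responders. The non-responder with the lowest Tnfsf10 had the lowest of these sums and the non-responder with the highest Tnfsf10 the highest of its group. The summed markers of T and cytotoxic cells (6 genes, 6 higher, 1 called) were 105 to 273 against 26.6 to 121 CPM, those of NK cells (4 genes, 3 tested and higher, 1 called) 16.8 to 36.3 against 4.68 to 13.6 CPM, and those of macrophages (5 genes, 4 higher, 3 called) 2112 to 3202 against 1576 to 2080 CPM. No marker in these lists was at 0 in every tumor. Among non-responders the T and cytotoxic sum was highest in the third (121 CPM), not in the second (87.6 CPM). The NK sum was likewise highest in the third (13.6 against 12.1 CPM). As for Tnfsf10, the first was lowest and the second highest for Ptprc (181 and 307 CPM) and the macrophage sum (1576 and 2080 CPM). The same held for summed monocyte markers (38.4 and 71.9 CPM) and skeletal muscle markers (287 and 373 CPM). It did not hold for the neutrophil, fibroblast, endothelial or adipocyte sums. Neutrophil markers (4 genes, 1 higher) were 74.8 to 154 against 57.9 to 125 CPM. Fibroblast markers (4 genes, 1 higher) were 3850 to 4545 against 3256 to 5521 CPM. With the Ptprc level of each tumor as a covariate, the log2 fold change of Tnfsf10 was 0.08 (SE 0.25). Ptprc itself did not overlap between the groups, so in that fit its level and response cannot be told apart, and the part of any cell type in the Tnfsf10 difference was not tested.

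The 3 genes whose log2 CPM most resembled that of Tnfsf10 over the 10 tumors, out of 13732 genes averaging at least 1 CPM, were Il27 (Pearson r = 0.996), Samhd1 (r = 0.996) and Sp110 (r = 0.995). Il27 encodes a subunit of a cytokine of antigen-presenting cells, Samhd1 a nucleotide hydrolase that restricts viruses and Sp110 a nuclear body protein. Within the 6 responders alone, r was 0.965, 0.934 and 0.991. The tumors share a response label that separates them, so the correlation over all 10 holds the group difference as well as the spread within groups.

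Tnfrsf10b (ENSMUSG00000022074, chr14:69767472-69784411, plus strand) encodes the mouse TRAIL receptor with a death domain. Responders ran from 23.2 to 26.8 CPM with a median of 25.6, and the 4 non-responders had 38.9, 30.2, 32.0 and 32.7 CPM. The groups did not overlap, and the highest responder was 3.41 CPM below the lowest non-responder. Tnfrsf10b averaged 25.6 ± 1.31 CPM (SD, n = 6) in responders and 33.4 ± 3.77 CPM (SD, n = 4) in non-responders, and the estimated log2 difference was -0.39 (SE 0.07). The tumor with the highest Tnfrsf10b was the non-responder with the lowest Tnfsf10. The 3 genes nearest in pattern over the 10 tumors were Fat2 (r = 0.977), Tmem120a (r = 0.975) and Crtc2 (r = 0.968), and within the 6 responders r was 0.923, 0.866 and 0.774.

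Tnfrsf22 (ENSMUSG00000010751) and Tnfrsf23 (ENSMUSG00000037613) encode the mouse TRAIL decoy receptors. Tnfrsf22 ran from 32.7 to 40.3 CPM in responders with a median of 38.7, and was 57.5, 52.5, 48.9 and 58.1 CPM in the 4 non-responders. Tnfrsf23 ran from 31.1 to 43.8 CPM in responders with a median of 38.4, and was 64.3, 50.5, 59.4 and 47.9 CPM in the non-responders. Neither gene overlapped between the groups, and the nearest tumors were 8.64 CPM apart for Tnfrsf22 and 4.14 CPM apart for Tnfrsf23. The log2 fold change was -0.53 (SE 0.07) for Tnfrsf22 and -0.56 (SE 0.11) for Tnfrsf23. Because the pair shares sequence, their counts were also summed, a choice made after seeing the data. The sum was 75.3 ± 8.16 CPM (SD, n = 6) in responders and 109.8 ± 8.32 CPM (SD, n = 4) in non-responders. Its log2 fold change was -0.54 (SE 0.08), so the lower total of the pair did not depend on how reads were divided between them. Both genes were lower in every responder, so their sum had to be lower. It does not show that each gene on its own was lower.

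Tnfrsf26 (ENSMUSG00000045362), the neighbor at the end of the cluster, encodes a related receptor that also lacks a death domain. It ran from 33.2 to 42.4 CPM in responders with a median of 38.4, and was 55.2, 51.3, 55.2 and 50.0 CPM in the non-responders. Its groups were 7.60 CPM apart at the nearest tumors, and the log2 fold change was -0.46 (SE 0.07). The 3 neighboring genes also varied together among tumors of a single group. Within the 6 responders Pearson r of log2 CPM was 0.934 between Tnfrsf23 and Tnfrsf26, 0.932 between Tnfrsf22 and Tnfrsf26 and 0.893 between Tnfrsf22 and Tnfrsf23. Over all 10 tumors Tnfrsf23 ranked as number 2 of 13732 genes in likeness to Tnfrsf26 (r = 0.969), and Tnfrsf22 as number 25 (r = 0.932). Number 1 was Tmem209, a gene outside the cluster (r = 0.993, and 0.988 within the responders). In likeness to Tnfrsf22, Tnfrsf26 ranked as number 46 and Tnfrsf23 as number 245 (r = 0.877). In likeness to Tnfrsf23, Tnfrsf26 ranked as number 5 and Tnfrsf22 as number 294, so genes outside the cluster were often as near as its neighbors. Tnfrsf10b, the receptor with a death domain, which lies on another chromosome, had r between -0.18 and 0.16 with the 3 within the responders. Its level varied little among those tumors (coefficient of variation 5.12%). Over all 10 tumors, which hold the group difference, Tnfrsf10b had r of 0.855 with Tnfrsf22, 0.839 with Tnfrsf23 and 0.841 with Tnfrsf26. Tnfrsf22 and Tnfrsf23 share sequence and the antisense gene overlaps all 3, and the part of either in these correlations was not tested.

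With Ptprc as a covariate the 4 receptors kept lower estimates, with log2 fold changes of -0.24 (SE 0.10) for Tnfrsf10b, -0.37 (SE 0.09) for Tnfrsf22, -0.29 (SE 0.15) for Tnfrsf23 and -0.37 (SE 0.11) for Tnfrsf26. No gene of the whole table was called by edgeR in that fit, while 845 genes had an unadjusted p under 0.05, 3 of the 8 described here among them. The receptors and the 4 tested carcinoma markers all had lower estimates in responders. None of these markers was called (smallest adjusted p = 0.0784 by edgeR), and the summed carcinoma level overlapped between the groups. Most of that sum was Krt20, at a mean of 29.1 CPM in responders and 52.9 CPM in non-responders. The part of the carcinoma share in the receptor levels was not tested. The calls of the receptors also rested on single tumors, and so did those of the whole table. Over all tested genes edgeR called 1293 with every tumor, 0 without the fourth non-responder, 16 without the first and 17 without the third responder. Without the fourth non-responder none of the 8 was called by edgeR (5 had an unadjusted p under 0.05), and without the first non-responder or the third responder 1 was called, Tnfrsf22, in each case with the same direction of all 4 receptors.

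**Figure D2:**
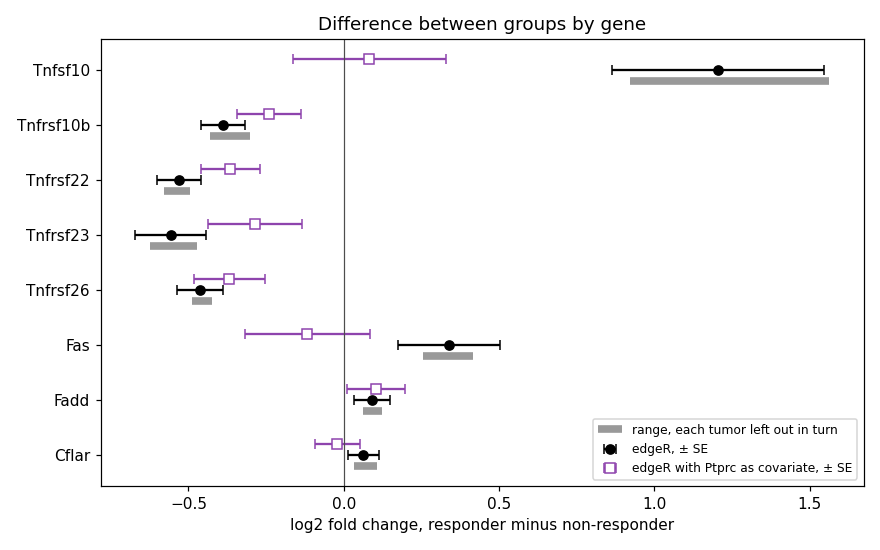
Log2 fold change of responders over non-responders (horizontal axis) for the 8 genes. Black points are edgeR estimates with SE, purple squares the same fit with Ptprc as covariate with SE, and grey bars the range when each tumor is left out in turn. The 4 receptors stay below 0 in all of them, Tnfsf10 moves from 1.20 to 0.08 with the covariate, and Fas changes sign from 0.34 to -0.12.

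Fas (ENSMUSG00000024778, chr19:34290666-34327772, plus strand) encodes the death receptor for Fas ligand. It ran from 21.0 to 34.8 CPM in responders with a median of 25.7, and was 18.0, 24.6, 23.02 and 19.9 CPM in the non-responders. Only 3 of the 6 responders were above all non-responders, and the other responders lay within their range. The log2 fold change was 0.34 (SE 0.17), and with Ptprc as a covariate it was -0.12 (SE 0.20). The nearest patterns over the 10 tumors were those of Nras (r = 0.963), Grina (r = 0.948) and Irf4 (r = 0.936), with r of 0.966, 0.989 and 0.955 within the responders. Without that covariate the Fas estimate was opposite in sign to those of the TRAIL receptors, and with it the sign was the same.

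Fadd (ENSMUSG00000031077, chr7:144577318-144582463, minus strand) is the adaptor of both receptors. It ran from 14.6 to 16.0 CPM in responders with a median of 15.4, and was 15.1, 14.7, 13.4 and 14.0 CPM in the non-responders. The groups overlapped, and the log2 fold change was 0.09 (SE 0.06). Fadd lies 0.891 Mb from the decoy cluster on the same chromosome and overlaps the antisense gene Faddos, with which it shared 5.47% of its 31-base words. Cflar (ENSMUSG00000026031, chr1:58711508-58758884, plus strand), which encodes cFLIP, ran from 185 to 205 CPM in responders with a median of 195, and was 177, 202, 192 and 175 CPM in the non-responders. The groups overlapped and the log2 fold change was 0.06 (SE 0.05). The median log2 fold change over all tested genes was -0.01 and the median absolute value 0.13, so the estimates for Fadd and Cflar were below the typical size and those of the other 6 genes above it.

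Levels of different genes can be set side by side only per length. In CPM per kilobase of mean protein-coding transcript length, over the 10 tumors, the order was Cflar (56.7 ± 3.0, SD), Tnfrsf23 (44.4 ± 10.8), Fas (21.7 ± 5.07), Tnfrsf22 (20.1 ± 4.2), Tnfrsf26 (14.3 ± 2.65), Tnfsf10 (9.73 ± 4.48), Tnfrsf10b (9.03 ± 1.49) and Fadd (3.81 ± 0.197). Tnfrsf23 exceeded Fas, Tnfrsf22 exceeded Tnfrsf26 and Tnfrsf10b exceeded Fadd in all 10 tumors. Fas and Tnfrsf22 could not be ordered (Fas higher in 6 of 10 tumors), nor could Tnfsf10 and Tnfrsf10b (Tnfsf10 higher in 6 of 10). Those 6 were the responders. The order depended on the length used, and only Cflar at the top and Fadd at the bottom kept their places both with the longest transcript and with the union of exons.

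The ratio of ligand to death receptor separated the groups. This followed from its parts, since every responder was above every non-responder for Tnfsf10 and below every non-responder for Tnfrsf10b. Tnfsf10 over Tnfrsf10b, both per kilobase, was 1.56 ± 0.285 (SD, n = 6) in responders, from 1.21 to 1.93, and 0.546 ± 0.345 (SD, n = 4) in non-responders, from 0.143 to 0.949. For this ratio of single genes the absolute value depends on the lengths used, but the proportion between groups does not. The ratio of the decoys Tnfrsf22 and Tnfrsf23 to Tnfrsf10b, all lower in responders, overlapped. It was 6.78 ± 0.846 (SD, n = 6) in responders and 7.58 ± 0.400 (SD, n = 4) in non-responders. Because it adds genes of different length, both its value and its proportion between groups depend on the lengths used. Both ratios are built from genes chosen on this contrast and are given without a test.

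**Figure D3:**
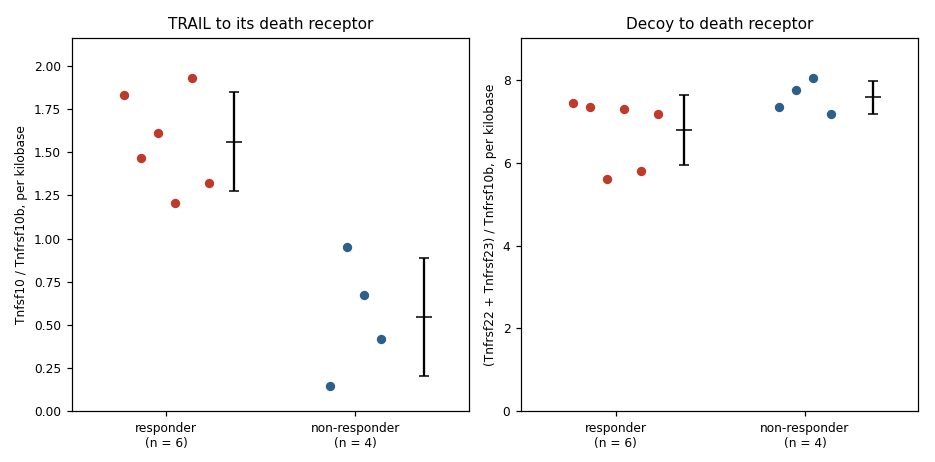
Ratio of TRAIL to its death receptor (left) and of the decoys to the death receptor (right) in each tumor, in CPM per kilobase, axes from 0, with mean and SD as black bars. The left ratio lies between 1.21 and 1.93 in responders and between 0.143 and 0.949 in non-responders, while the right ratios overlap.

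The other genes of the pathway, 40 genes in 4 lists, all passed the filter on low counts. Of these, 5 were called higher and 1 lower in responders by edgeR at an adjusted p of 0.05, and 23 had higher and 17 lower estimates with a median log2 fold change of 0.06. Over all tested genes 4.71% were called higher and 3.35% lower. These lists too were chosen with earlier results of these data known, so the adjusted p-values, taken over all tested genes, are no independent evidence for the pathway. Of those called higher, 2 were among 11 ligands and receptors, 1 among 12 adaptors and proximal regulators and 2 among 12 genes of the mitochondrial arm and execution.

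Fasl, the ligand of Fas made by cytotoxic lymphocytes, was low in every tumor. It ran from 2.97 to 7.55 CPM in responders with a median of 3.71, and was 0.848, 2.09, 2.64 and 2.08 CPM in the non-responders. The groups did not overlap, and Fasl rose by 1.28 on the log2 scale (SE 0.35, adjusted p = 0.0467, edgeR), with every responder above every non-responder. Fasl was called in 1 of 10 fits with a tumor left out, and its log2 fold change was 0.16 with Ptprc as a covariate (adjusted p = 0.974). Both death ligands, Tnfsf10 and Fasl, thus had higher levels in responders together with the leukocyte marker.

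Tnfrsf21, which encodes the death domain receptor DR6, was higher in responders by 0.55 on the log2 scale (SE 0.11, adjusted p = 0.0281, edgeR), at 51.9 ± 6.49 CPM (SD, n = 6) against 35.4 ± 5.67 CPM (SD, n = 4). This receptor with a death domain differed in the direction opposite to Tnfrsf10b. Tnfrsf11b, which encodes osteoprotegerin, a secreted decoy that also binds TRAIL, was at 4.41 ± 0.981 CPM in responders and 6.65 ± 1.94 CPM in non-responders, a log2 fold change of -0.59 (SE 0.20) that missed the threshold (adjusted p = 0.0885, edgeR). Tnfrsf1a, the main TNF receptor with a death domain, had a log2 fold change of 0.05 (SE 0.06, adjusted p = 0.636, edgeR).

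Among signaling proteins, Casp8, the initiator caspase at these receptors, had a log2 fold change of 0.10 (SE 0.07, adjusted p = 0.344, edgeR). The survival genes Bcl2 (0.42, SE 0.09, adjusted p = 0.0283) and Mcl1 (0.18, SE 0.05, adjusted p = 0.0478), and Cyld (0.26, SE 0.06, adjusted p = 0.033), a deubiquitinase of TNF receptor signaling, rose. The 5 genes called higher had groups that did not overlap and kept their direction in every alternative fit, but with a tumor left out they were called in 1 of 10 (Fasl), 6 (Tnfrsf21), 4 (Cyld), 7 (Bcl2) and 2 (Mcl1) fits, and none was called with Ptprc as a covariate. In that fit the log2 fold changes were smaller, at 0.14 for Tnfrsf21, 0.12 for Bcl2, 0.09 for Cyld and 0.05 for Mcl1 (adjusted p between 0.915 and 0.943, edgeR).

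**Figure D4:**
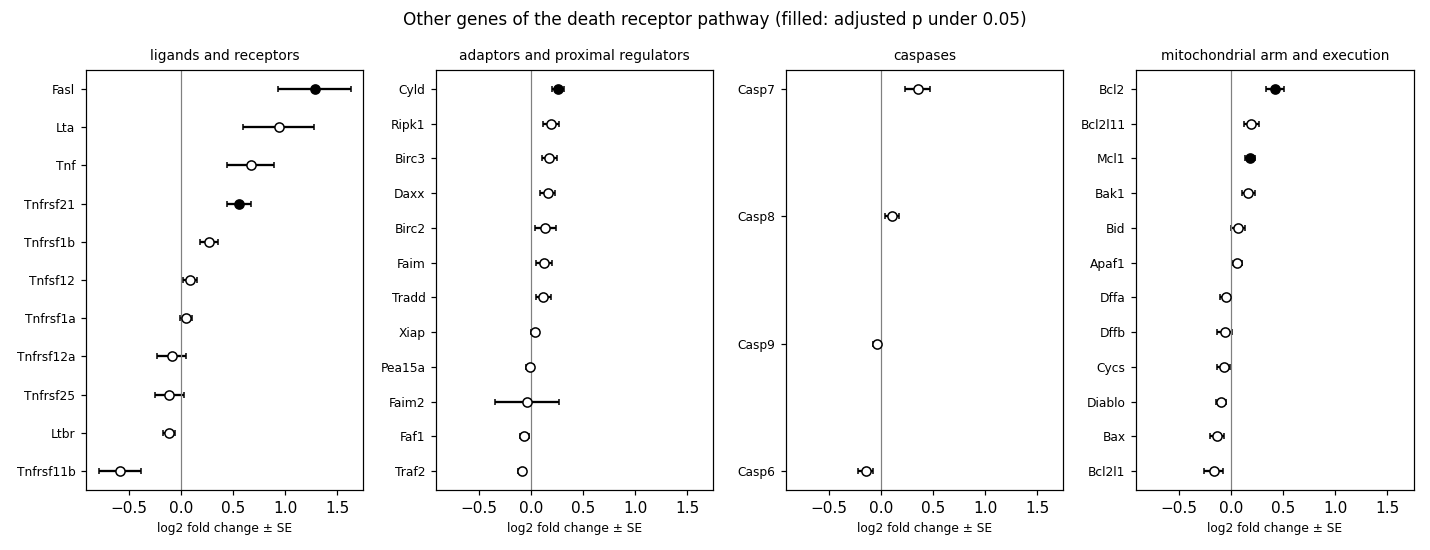
Log2 fold change of responders over non-responders with SE (horizontal axis) for other genes of the pathway in 4 lists, filled where the adjusted p was under 0.05. Fasl, Tnfrsf21, Cyld, Bcl2 and Mcl1 are filled, all to the right of 0.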

How the data were processed

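RNA from 10 CT26 tumors was sequenced as polyadenylated, paired-end libraries. The authors estimated transcript abundance with Kallisto and summed it to genes with tximport on mm10 (GRCm38), and deposited the resulting estimated counts, of which 45.1% of values were not whole numbers. The annotation release, the tximport scaling and the strand setting are not given in the sources used here. Counts were rounded and genes kept by edgeR's filterByExpr (minimum count 10, minimum total 15), leaving 16041 of 36009. TMM scaling and edgeR 4.0.16 quasi-likelihood tests (R 4.3.3) compared responders with non-responders, with Benjamini-Hochberg adjustment over all tested genes and a prior count of 2. SE was derived from the fold change and F statistic. DESeq2 1.42.0, limma 3.58.1, other scalings and filters, a Ptprc covariate and leaving out each tumor were alternatives, and the test was tried on simulated data.

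The 8 genes and the lists were chosen with earlier results of these data known. All 8 are named, and from the pathway lists Fasl, Tnfrsf11b, Tnfrsf1a and Casp8 always, with up to 10 others of smallest p among those with an adjusted p under 0.05. Nearest patterns were the 3 genes of highest Pearson r with Tnfsf10, Tnfrsf10b and Fas, and the nearest gene to Tnfrsf26 is also given. The labels tie each library to a tumor and give no replicate numbers, so tumors were not paired. Tumors came from 1 experiment. Values of 1 pathway gene and 1 sequence are not reported here. Counts give precision for counting error only, and the lowest estimated count of any of the 8 genes in a tumor was 129.5 (Tnfsf10).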

Additional observations from a re-analysis of the deposited data

Results flagged for a closer look

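Among 18 groups of values examined (each of the 8 genes and the ratio of decoys to death receptor, in either group), 1 had a tumor far from the others, about what chance gives (0.9 of 18, or about 1 in 20). It was Tnfrsf10b in responders, where the sixth responder had a log2 CPM of 4.54 and the next lowest 4.67, a gap of 0.629 of the whole range of the group. The tumor was low among responders, which were already below all non-responders, so the separation of the groups did not rest on it.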

How the results depend on the processing

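Of 137 log2 fold changes of the 8 genes under 18 settings, 135 kept their direction. The exceptions were Fas (-0.12) and Cflar (-0.021) with Ptprc as a covariate. edgeR called 1293 genes, DESeq2 2602, and edgeR with the Ptprc covariate 0 (845 at an unadjusted p under 0.05). Of the 8 genes, 4 were called, and with the Ptprc covariate 0 (3 unadjusted). Of the pathway genes, 6 were called by edgeR, 10 by DESeq2 and 0 with the Ptprc covariate (2 unadjusted). With each tumor left out, calls ranged from 0 to 1897 genes, 0 to 5 of the 8 and 0 to 9 of the pathway genes (12 to 15 unadjusted where 0). The lowest counts came without the fourth non-responder (0 genes, 4106 unadjusted), the first (16 genes) or the third responder (17 genes), and the highest without the second non-responder. The cause was not tested. Of the 8 places in the order of levels per length, 2 were kept with the longest transcript and 5 with the union of exons. Tnfsf10 was called by DESeq2 and limma but not by edgeR, and in 1 of 10 fits with a tumor left out.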

Other observations

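For 6 of the 40 pathway genes every responder was above every non-responder. Over all tested genes the groups did not overlap, in either direction, for 10.4%, a share that also counts genes lower in responders. Besides the 5 genes called higher, the pathway gene so placed was Lta, which encodes lymphotoxin alpha. It was chosen for mention after its values were seen. Lta was low, at 1.14 ± 0.518 CPM in responders and 0.591 ± 0.200 CPM in non-responders, with a log2 fold change of 0.94 (SE 0.34) that missed the threshold (adjusted p = 0.102, edgeR).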
